A study of Mus musculus with 120 samples.

Results

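The collagen genes were followed in biopsies of subcutaneous scaffolds, and the members were every gene of the count tables whose symbol has the form Col, a number, a and a number. This rule found 44 of the 55487 genes that the tables of both sequencing batches share. By structure they comprised 11 fibrillar chains, 6 chains of basement membrane type IV collagen, 6 chains of type VI collagen, 9 fibril-associated chains (FACITs), 3 short-chain network collagens, 2 multiplexins, 4 transmembrane collagens, the anchoring fibril collagen Col7a1 and 2 others, Col26a1 and Col28a1.

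The scaffold, called an immunological niche (IN), is a microporous disc of polycaprolactone placed under the skin, where host cells and tissue fill its pores. All mice were female, and all carried INs from an age of 4 weeks. NOD/ShiLtJ (NOD) mice develop autoimmune diabetes spontaneously, and the related NOR/LtJ (NOR) strain does not. NOD mice were divided by outcome into progressors, which became diabetic, and nonprogressors, which did not, and no mouse was given an agent to induce disease. Batch 1 held NOR INs from mice aged 6, 10, 14, 18 or 22 weeks (4 or 5 mice each), nonprogressor INs at the same ages (4 mice each), and progressor INs at 6 weeks of age, at 5, 3 and 1 weeks before onset and at onset (5 mice each). Batch 2 held other nonprogressors at 6 weeks (7 mice) and 14 weeks (6 mice), other progressors at the same 5 points (5 mice each) and progressor INs from 7 weeks before onset (8 mice, 4 of them also in batch 1). A further 6 nonprogressor INs in batch 1 carry days after implantation in place of an age and entered no comparison. INs were taken out and replaced in rotation and the first ones had been in place for 2 weeks. Age, the round of implantation and the state of the scaffold therefore cannot be told apart in any comparison with 6 weeks. Comparisons between later times also differ in age and round, which cannot be told apart from each other or from time to onset. A whole biopsy was sequenced, so fewer cells of a type and less RNA per cell cannot be told apart either.

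Collagens are helices of alpha chains wound around each other, built in the endoplasmic reticulum, trimmed outside the cell and cross-linked into fibrils, networks or filaments. Type I and type III fibrils give loose connective tissue and scars their bulk, and type V starts those fibrils and limits their width. Type IV forms the sheet under epithelium and around vessels, type VI forms beaded filaments near the cell surface, FACITs sit on the surface of fibrils, and transmembrane collagens such as Col17a1 hold epithelial cells to their basement membrane. Fibroblasts are the main source of the fibrillar chains in healing tissue and around implants, where collagen is laid down early and can form a capsule.

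Promoter sequence is shown for members that the comparisons turn on, from RefSeq (GRCm38.p6), which gave a window of 250 bases before the start for 35 of the 44 members (38 windows). Col4a1 and Col4a2 lie head to head on chromosome 8, and their RefSeq starts face each other with 22 shared bases at chr8:11312805-11312826 (plus strand), printed here because the pair is followed below. The windows of Col1a2 at chr6:4505368-4505617, Col3a1 at chr1:45311288-45311537 and Col24a1 at chr3:145292222-145292471 (all plus strand, upstream of the start) are printed because Col1a2 and Col3a1 fell and Col24a1 rose in the comparisons with 6 weeks. Capitals mark matches to CCAAT (the CCAAT box), to TATAAA (the TATA box) and to GGGCGG (the GC box), each searched on both strands.
Col4a1 and Col4a2: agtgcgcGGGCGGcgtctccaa
Col1a2: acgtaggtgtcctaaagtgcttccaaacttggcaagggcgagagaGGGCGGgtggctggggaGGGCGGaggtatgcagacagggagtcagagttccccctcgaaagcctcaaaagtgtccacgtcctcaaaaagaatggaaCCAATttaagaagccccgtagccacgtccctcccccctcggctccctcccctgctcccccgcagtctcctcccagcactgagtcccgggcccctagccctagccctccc
Col3a1: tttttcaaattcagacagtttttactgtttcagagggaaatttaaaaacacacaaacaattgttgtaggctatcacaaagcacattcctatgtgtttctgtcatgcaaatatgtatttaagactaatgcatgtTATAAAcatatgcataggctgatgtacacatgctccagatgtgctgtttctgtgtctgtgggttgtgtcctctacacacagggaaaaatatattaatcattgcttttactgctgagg
Col24a1: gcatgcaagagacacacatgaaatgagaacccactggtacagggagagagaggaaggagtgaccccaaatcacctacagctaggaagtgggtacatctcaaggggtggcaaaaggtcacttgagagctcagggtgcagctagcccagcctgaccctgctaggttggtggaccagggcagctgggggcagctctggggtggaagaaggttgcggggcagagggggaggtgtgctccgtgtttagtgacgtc
The bases shared by Col4a1 and Col4a2 lie after both starts, outside the windows, and held GGGCGG once. In the windows before the starts, not printed, Col4a1 held CCAAT and Col4a2 held CCAAT and GGGCGG. The Col1a2 window held CCAAT and a pair of GGGCGG, the Col3a1 window held TATAAA, and the Col24a1 window held none of these letters. Over all 32851 promoter windows CCAAT occurred in 33.8%, TATAAA in 12.4% and GGGCGG in 32.7%, and over the 38 collagen windows in 34.2%, 13.2% and 57.9%. Matches are given as a description of these windows only.

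Levels are given as CPM, that is counts divided by library size and scaled within a batch by edgeR's TMM factors, and levels of different genes are compared only after division by exon length (CPM per kb). Col1a1, the chain of which type I collagen holds a pair, had the highest median level in both batches, 1623 CPM per kb in batch 1 and 1520 in batch 2. Col3a1 followed with 909.2 and 871.5 CPM per kb, and Col1a2, the partner chain of Col1a1, with 592.6 and 529.4. Type VI chain Col6a1 came next, with a median of 246.9 CPM per kb in each batch. At the other end stood the cartilage FACIT Col9a1, which was at 0 counts in 47 of 74 libraries of batch 1 and 19 of 46 of batch 2. Col4a1 reached 78.7 and 56.15 CPM per kb and Col4a2 60.45 and 41.23, whereas Col24a1, a minor fibrillar chain, reached 7.26 and 6.221. Col2a1, the chain of type II cartilage collagen, and the FACIT Col22a1 had medians of 0.01925 and 0.00808 CPM per kb in batch 1.

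The pairs Col4a1 with Col4a2 and Col1a1 with Col1a2, which assemble together, held a steadier ratio than level. Over the 74 libraries of batch 1 the log2 ratio of Col4a1 to Col4a2 had a mean of 0.57 and an SD of 0.09, while log2 CPM of Col4a1 had an SD of 0.68. In the 46 libraries of batch 2 these SDs were 0.12 and 0.76. The log2 ratio of Col1a1 to Col1a2 had an SD of 0.16 in batch 1 and 0.09 in batch 2. That of Col3a1 to Col1a1, which form different molecules, had 0.35 and 0.37. Log2 CPM had SDs of 0.59 and 0.75 for Col1a1 and 0.71 and 0.98 for Col3a1, so this ratio too was steadier than level. Col4a5 and Col4a6 moved apart in nonprogressors of batch 2 between 6 and 14 weeks (-1.06 to -0.82 and 2.52 to 3.1 on the log2 scale over the settings tried). These are descriptions over libraries that share mice and depth, and the pairs also lie side by side in the genome in the case of Col4a1 and Col4a2.

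Totals ran from 4722000 to 56190000 counts per library in batch 1 and from 29030000 to 43880000 in batch 2. The 44 collagens took 1.165% to 11.06% of the counts of a library in batch 1 and 1.099% to 9.344% in batch 2. Macrophage markers were present in every library (5 genes, 3056 to 10420 CPM in sum), as were fibroblast markers (6 genes, 179.6 to 3263 CPM). One library stood apart: the 18-week IN of NOR mouse 5 had 85.7% of all counts on 1 gene for ribosomal RNA and 1233373 counts elsewhere, so its CPM values are scaled up by a normalization factor of 0.12. Skin markers (5 epidermis and 5 hair follicle genes) exceeded 100 CPM by total counts in 7 of the 114 libraries of the fits, and results that rest on these libraries are given with and without them.

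In each course and batch the median collagen share of raw counts was highest at 6 weeks of age. The median of the summed TMM-scaled CPM was highest at 6 weeks as well, except in NOR, where it was 53040 at 6 weeks and 57870 at 18 weeks. The NOR libraries at 18 weeks summed to 49044, 37204 and 66698 CPM in mice 1, 3 and 4 and to 97401 in mouse 5, the library with most counts on ribosomal RNA, whose raw share was the lowest (1.165%). Nonprogressors of batch 1 had 4.983%, 6.23% and 7.175% of counts on collagens (lowest, median and highest library) at 6 weeks and 1.483%, 1.984% and 3.231% at 22 weeks. Their summed CPM was 43300, 54820 and 63310 at 6 weeks and 19090, 27950 and 49220 at 22 weeks, a smaller difference between the medians, and here the groups overlapped. Progressors of batch 1 had 5.907%, 6.528% and 11.06% at 6 weeks, 2.252%, 3.185% and 3.65% at 5 weeks before onset and 1.402%, 4.387% and 5.502% at onset. In batch 2 the progressor share was 5.381%, 7.673% and 8.37% at 6 weeks and 1.099%, 1.904% and 2.631% at onset, with no overlap between these groups (58580 to 89370 and 11050 to 27270 CPM). NOR mice had 4.846% to 6.178% at 6 weeks and 3.629% to 5.432% at 22 weeks, which overlapped (48010 to 56080 and 37080 to 52530 CPM).

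**Figure D1:**
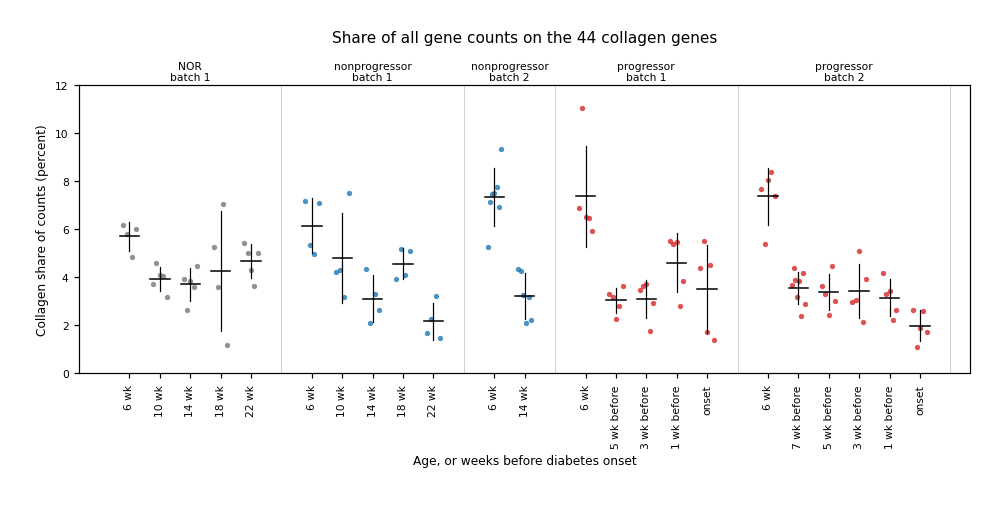
Share of a library's counts that fell on the 44 collagens, in percent, for every biopsy by group and batch (points are mice, bars mean and SD). The 6-week groups sit highest in NOD mice, and the batch 2 onset group lies lowest, at 1.099% to 2.631%.

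The first question was whether collagens differ between the strains. The biopsies of each mouse in batch 1 were summed, which gave 5 NOR and 9 NOD mice. Of 23387 genes tested 8.98% differed, and of the 44 collagens 2 did, both lower in NOD (over all genes 3.87% were higher and 5.11% lower). Their median log2 fold change was -0.02, against -0.002 over all genes. Col1a1 lay at 9992, 10740 and 15720 CPM (lowest, median, highest) in the NOD mice and at 11260, 11790 and 12950 in the NOR mice, with overlap (log2 fold change -0.01, SE 0.12).

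Col23a1, a transmembrane collagen, ranged from 7.244 to 11.67 CPM in the 9 NOD mice (median 9.2) and from 12.82 to 17.76 in the 5 NOR mice, without overlap. The log2 fold change was -0.74 (SE 0.11, adjusted p = 0.00034). These sums pool ages that were not matched, as progressor INs after 6 weeks were timed by onset. At 10 weeks the median was 25.19 CPM in NOR and 13.19 in nonprogressors, without overlap. At 22 weeks the order was reversed, with medians of 4.764 in NOR and 7.473 in nonprogressors and overlapping groups. At 6, 14 and 18 weeks the NOR median was the higher. Col11a2, a type XI chain, lay at 3.231, 3.737 and 4.489 CPM (lowest, median, highest) in NOD and 4.066, 4.799 and 5.555 in NOR, with overlap (log2 fold change -0.34, SE 0.09, adjusted p = 0.0292). With 6-week biopsies alone neither gene passed, and the log2 fold change of Col23a1 was then -0.10 (SE 0.25, adjusted p = 0.906) and that of Col11a2 -0.52 (SE 0.17, adjusted p = 0.175). Col11a2 also failed without the filter on low counts, against nonprogressors only, and without NOR mouse 1, 3 or 5, nonprogressor 1 or progressor 4. Epidermis and hair follicle lists had medians of 4.00 and 7.41 on the log2 scale in this comparison, with none of their 5 genes each passing, and their part in the result was not tested.

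In NOR mice, later ages were compared with 6 weeks (19 and 4 biopsies). Of 21131 genes 0.0994% passed (0.0189% higher, 0.0805% lower), and 1 of 44 collagens did. It was Col4a5, a type IV chain of kidney and other basement membranes, at 13.94, 22.34, 26.65 and 19 CPM at 6 weeks and at 2.135, 7.994 and 21.34 (lowest, median, highest) later. Col4a5 fell by 1.20 on the log2 scale (SE 0.26, adjusted p = 0.0288), and the call was lost with the mouse as a block, with 14 weeks alone, when only these groups were fitted and without mouse 1, 2 or 3. The median of the members was -0.27 against 0.001 over all genes, and 11 members had an unadjusted p under 0.05.

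Nonprogressors of batch 1 showed lower collagens at 10 to 22 weeks than at 6 weeks (16 and 4 biopsies). Of 21131 genes 12.1% passed, 5.94% higher and 6.19% lower. Of the collagens 2 rose and 12 fell, and their median log2 fold change was -0.58 against -0.02 over all genes. The block left 12 calls, without Col17a1 and Col6a4. The count was 7 without the libraries with skin markers, 5 without nonprogressor 4 and 8 without nonprogressor 1.

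Of the 6 type VI chains 3 fell and 1 rose. Col6a1 had 1670, 1529, 1297 and 1461 CPM at 6 weeks in mice 1 to 4 and 417.8, 588.5, 719.1 and 517.6 at 22 weeks. Over all later ages it fell by 0.73 on the log2 scale (SE 0.21, adjusted p = 0.0156), with Col6a2 and Col6a3 falling by 0.78 and 0.80, although Col6a1 did not pass without the libraries with skin markers or without mouse 1, 2 or 4. Col6a4, a chain at 0.1142 to 0.3019 CPM at 6 weeks, rose by 1.47 (SE 0.48, adjusted p = 0.0369), a call lost with the mouse as a block, without the libraries with skin markers and without any 1 of the 4 mice. Between 10 and 22 weeks alone Col6a1 fell by 1.24 (SE 0.28, adjusted p = 0.00227), and the 22-week values lay below all of those at 10 weeks (1122 to 1672 CPM).

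Col18a1, the multiplexin whose end fragment is endostatin, had 354.4 to 472.4 CPM at 6 weeks and 67.85 to 289.3 later, without overlap, and fell by 1.17 (SE 0.27, adjusted p = 0.00413), which did not pass without nonprogressor 4. Col4a5 (21.09 to 31.09 CPM, then 5.515 to 20.18) and Col28a1, a collagen of peripheral nerve (10.33 to 12.62, then 0.2625 to 8.148), did not overlap either. Their log2 fold changes were -1.48 and -2.17. Of the major fibrillar chains Col3a1 passed, at 10730 to 17620 CPM at 6 weeks and 3036 to 19200 later (log2 fold change -0.83, SE 0.27, adjusted p = 0.0369), and its call too was lost without the libraries with skin markers and without mouse 1, 3 or 4. Col1a1 had a log2 fold change of -0.42 (SE 0.24, adjusted p = 0.237) and Col4a1 one of -0.57 (SE 0.32, adjusted p = 0.231), and neither passed.

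Col11a1, a type XI chain best known from cartilage fibrils, fell between 10 and 22 weeks in both strains. It had 69.88, 69.44, 50.28 and 42.59 CPM in nonprogressors at 6 weeks, 51.2, 51.93, 27.37 and 18.17 at 10 weeks, 2.121 to 12.23 at 14 weeks, 3.688 to 20.18 at 18 weeks and 4.722, 2.468, 20.09 and 6.096 at 22 weeks. In NOR it had 43.09, 42.72, 34.71 and 25.56 CPM at 6 weeks, 23.46 to 54.35 at 10 weeks, 7.731 to 31.92 at 14 weeks, 3.486 to 9.121 at 18 weeks and 1.399 to 7.222 at 22 weeks. The nonprogressor values at 14 weeks lay below all of those at 10 weeks and overlapped those at 22 weeks, while every NOR value at 14 weeks lay above those at 22 weeks. Between 10 and 22 weeks it fell by 3.36 in NOR (SE 0.62, adjusted p = 0.000224) and by 2.17 in nonprogressors (SE 0.66, adjusted p = 0.0242), where the call was lost without mouse 1, 2 or 4 and with only these groups in the fit.

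The changes in NOR and in nonprogressors were also compared with each other. No gene of 21131 (0%) and no collagen differed in the change from 6 weeks to later ages by edgeR, with 2 collagens at an unadjusted p under 0.05 and 1 by DESeq2. The strain difference in the change of Col24a1 was 1.06 on the log2 scale (SE 0.30, adjusted p = 0.827). Between 10 and 22 weeks 11.3% of genes passed in NOR (5.22% higher, 6.06% lower) and 12.2% in nonprogressors (5.19% higher, 7.02% lower), and 9 collagens (4 higher, 5 lower) and 11 (4 higher, 7 lower) passed. The NOR count fell to 5 without mouse 1, and the nonprogressor count to 5 without mouse 2 or mouse 4 and 6 without mouse 1.

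Batch 2 offered another group of nonprogressors, at 14 weeks (6 mice) against 6 weeks (7 mice). Of 21808 genes 29.1% passed, 15.7% higher and 13.4% lower. Among 42 collagens tested (Col19a1 and Col22a1 were too low) 9 rose and 17 fell, with a median of -0.52 against 0.02 over all genes. Fibrillar chains made up 7 of those that fell.

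Col1a1 had 16770, 20920 and 28250 CPM (lowest, median, highest) at 6 weeks and 5716, 8225 and 14250 at 14 weeks, without overlap, and fell by 1.29 (SE 0.23, adjusted p = 0.000113). Col3a1 went from 14580, 22510 and 29160 CPM to 4263, 7760 and 10010, also without overlap, and fell by 1.62 (SE 0.27, adjusted p = 3.47e-05). Col5a1, of the type V fibril starter, fell by 1.36 and Col14a1, a FACIT bound to type I fibrils, by 1.63, each without overlap. Type VI chains Col6a1, Col6a2 and Col6a3 fell by 0.74, 0.74 and 0.76 with overlapping groups. Col4a1 (-0.53) and Col4a2 (-0.41) did not pass, and mouse 5 had the lowest Col4a1 at 14 weeks, 94.79 CPM against 344.4 to 768.8 in the other mice.

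Fibroblast markers fell with the fibrillar chains here: 6 of 6 passed as lower, and their sum was 1528 to 2918 CPM at 6 weeks and 816.3 to 1383 at 14 weeks. Adipocyte markers rose in 5 of 5 (median log2 fold change 5.75), and skeletal muscle markers in 5 of 5 (4.46). How far these cells account for the collagen changes was not tested.

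Progressors were compared from 5 weeks before onset to onset against 6-week INs of the same mice, separately in each batch (20 and 5 biopsies). The fit was not paired by mouse. In batch 1 24.9% of 21131 genes passed (11.6% higher, 13.2% lower), and 2 of 44 collagens rose and 23 fell. In batch 2 34.1% of 21808 genes passed (17% higher, 17.1% lower), and 7 of 42 rose and 19 fell. The members' medians were -0.77 and -0.53, against 0.005 and 0.04 over all genes. At these times the batches held separate mice. The members' changes in batch 2 minus those in batch 1 had a median of 0.18. None was past the threshold by edgeR (4.61% of all genes passed), 8 had an unadjusted p under 0.05, and 1 passed by DESeq2.

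Of the 11 fibrillar chains, 8 fell and 1 rose in each batch. Col1a1 had 17168, 29684, 15076, 19943 and 17468 CPM in progressors 1 to 5 at 6 weeks and 3812, 9385 and 16460 (lowest, median, highest) later. In batch 2 it had 22828, 18494, 23332, 26325 and 22299.9 CPM at 6 weeks and 3060, 8565 and 14780 later. The groups overlapped in batch 1 and not in batch 2, and Col1a1 fell by 1.04 (SE 0.20, adjusted p = 0.000174) and 1.44 (SE 0.19, adjusted p = 1.3e-07).

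Col3a1, prominent in young granulation tissue, had 15050 to 28430 CPM at 6 weeks and 2732 to 16240 later in batch 1, and 12100 to 29860 and 1472 to 13050 in batch 2. It fell by 1.29 (SE 0.24, adjusted p = 9.23e-05) and 1.86 (SE 0.21, adjusted p = 6.49e-09). Col5a1 did not overlap in either batch (2759 to 4541 CPM, then 864.3 to 2755 in batch 1, and 2581 to 3289, then 528.3 to 1655 in batch 2). Its log2 fold changes were -1.01 and -1.50. Col1a2, Col5a2, Col5a3, Col11a1 and Col27a1 fell in both batches as well, by 0.70 to 2.24, with Col11a1 in batch 2 not passing without progressor 6, 7 or 10.

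Basement membrane chains divided. Col4a5 had 25.13 to 32.06 CPM at 6 weeks and 3.512 to 16.31 later in batch 1, and 21.33 to 26.14 and 3.912 to 14.54 in batch 2, with no overlap in either. It fell by 1.35 (SE 0.23, adjusted p = 3.66e-05) and 1.52 (SE 0.17, adjusted p = 7.22e-09). Col4a1 and Col4a2, the pair of nearly all basement membranes, fell by 0.97 and 0.96 in batch 1 (adjusted p = 0.00832 and 0.00728), and neither passed without progressor 3. In batch 2 Col4a1 had 520.8, 318.8, 536.8, 224.2 and 563.4 CPM at 6 weeks and 81.39, 332 and 561.6 later, and its log2 fold change of -0.48 did not pass (SE 0.26, adjusted p = 0.143). Col4a4, whose product belongs to the kidney type of network, fell by 1.14 in batch 2 (adjusted p = 0.00021) with -0.14 in batch 1.

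Type VI chains Col6a1, Col6a2 and Col6a3 fell in both batches, by 1.17, 1.24 and 1.17 in batch 1 and 0.97, 1.03 and 1.14 in batch 2. Col6a1 had 1827, 2359, 2094, 1765 and 1614 CPM at 6 weeks and 409.7 to 1214 later in batch 1, and 1673, 1527, 1632, 1359 and 1668 against 275.9 to 1350 in batch 2. No later IN reached the lowest 6-week IN of its batch. Col6a6 also fell (by 1.24 and 0.56), while Col6a4 rose by 1.62 (SE 0.42, adjusted p = 0.00247) and Col6a5 by 1.17 (SE 0.40, adjusted p = 0.0223) in batch 2, with 0.28 and 0.51 in batch 1. Mean Col6a5 in batch 2 was 32.56 CPM at 6 weeks and 106.8, 109.3 and 89.15 at 5, 3 and 1 weeks before onset. At onset it was 27.56, below the 6-week mean. In batch 1 the mean was 34.63 CPM at 6 weeks, 17.93 at 5 weeks before onset and 85.86 at onset. In batch 2 the call of Col6a5 was lost without progressor 7 or 9 and that of Col6a6 without progressor 6, 8 or 10. Col6a4 stayed below 2 CPM in all progressor libraries (0.07472 to 1.735).

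Outside these classes, Col18a1 fell by 1.53 and 1.56, with no overlap in either batch (448.6 to 695.7 CPM, then 57.97 to 304.1, and 200 to 371.8, then 47.29 to 192.9). Col16a1 and Col14a1, both FACITs, fell in both batches (Col16a1 by 0.78 and 0.98, Col14a1 by 1.41 and 2.07), as did Col26a1 (1.90 and 1.60) and Col28a1 (1.96 and 1.16). Col10a1, the collagen of hypertrophic cartilage, rose by 0.66 and 0.45 (adjusted p = 0.00143 and 0.0166), the latter not without progressor 9 or 10. Col26a1 did not pass without progressor 3 in batch 1 or 6 in batch 2, nor Col28a1 without progressor 10 in batch 2. Col10a1 was low throughout, with 2.911, 2.352, 3.361, 2.404 and 2.884 CPM at 6 weeks and 4.593, 5.485, 5.791, 4.079 and 5.171 at onset in batch 1.

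**Figure D2:**
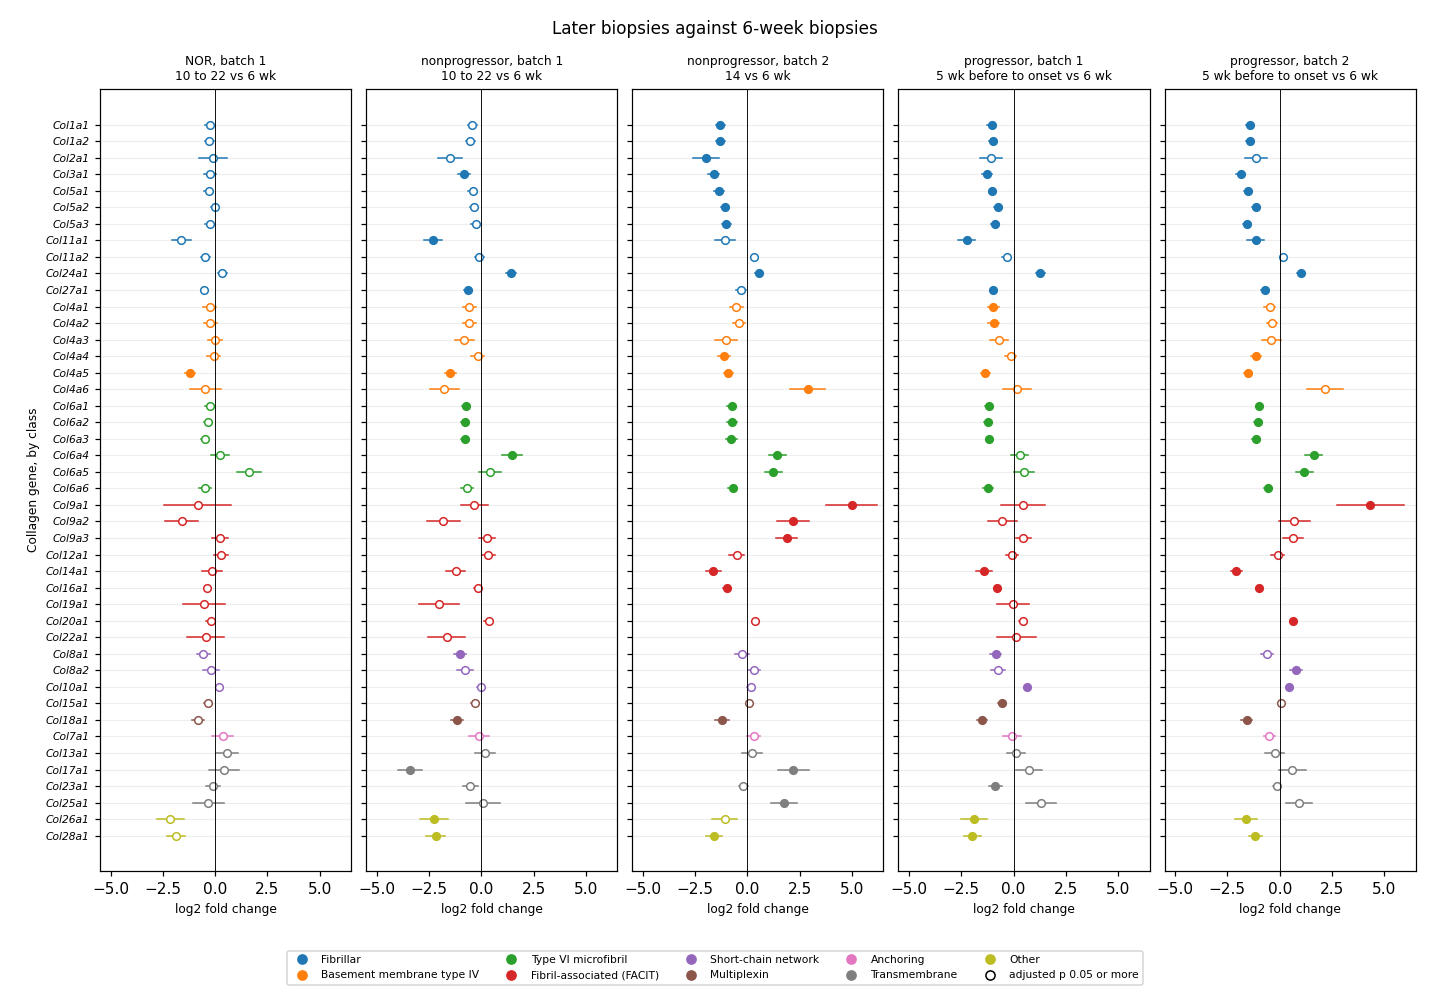
Log2 fold change (later against 6 weeks) of each collagen in NOR, in nonprogressors of each batch and in progressors of each batch, with bars of 1 SE and filled points where the adjusted p is under 0.05. Filled points lie mainly left of 0, from Col17a1 at -3.41 in nonprogressors of batch 1, and Col24a1 lies right of 0 in all 5 comparisons (0.34 to 1.40).

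Fibroblast markers moved with these groups also, with 5 of 6 lower in batch 1 (median -0.97) and 6 of 6 in batch 2 (-1.55). Their summed level was 849.2 to 1758 CPM at 6 weeks and 223.5 to 1315 at onset in batch 1, and 1188 to 3263 and 313.6 to 641.2 in batch 2. The fibroblast markers Pdgfra, Lum and Dcn were at 52.64, 20.94 and 79.8 CPM or more in every library, and the part of these cells in the collagen changes was not tested. The progressor change minus the nonprogressor change was past the threshold for no collagen in either batch by edgeR (0.00946% of genes in batch 1 and 0% in batch 2), with 4 and 1 at an unadjusted p under 0.05. The times of these groups are not matched, since progressors are counted back from onset.

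**Figure D3:**
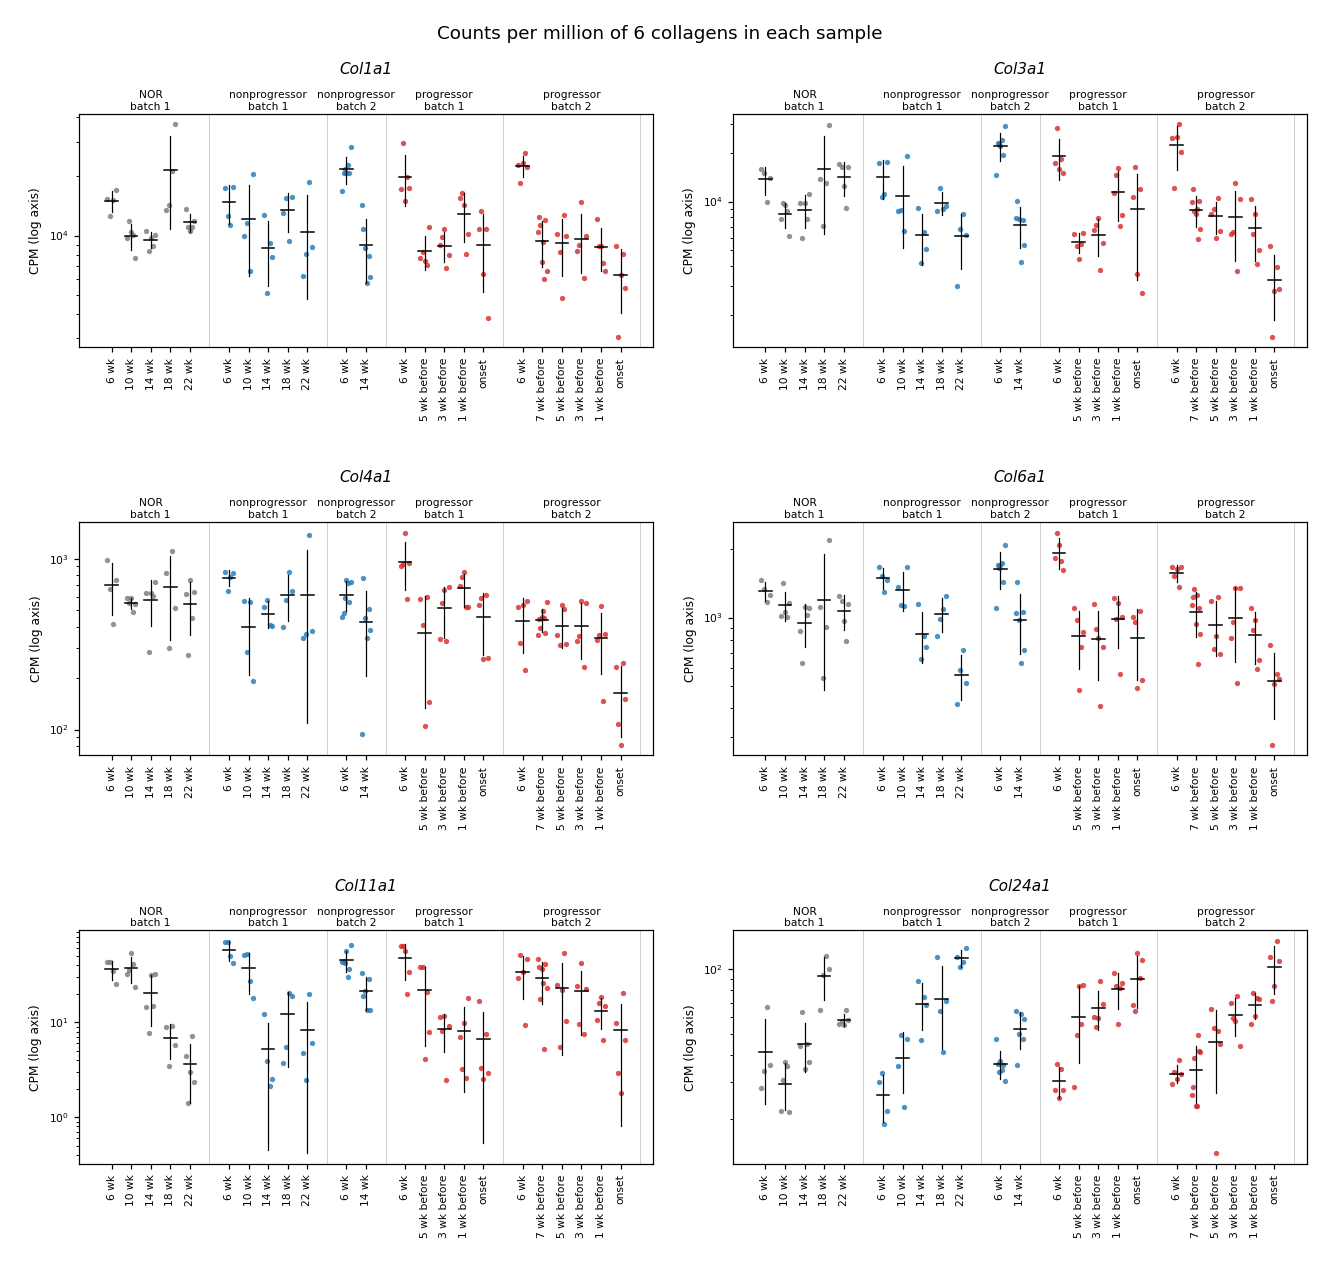
CPM of Col1a1, Col3a1, Col4a1, Col6a1, Col11a1 and Col24a1 in every biopsy by group and batch (points are mice, bars mean and SD). Progressors of batch 2 go from 18490 to 26330 CPM of Col1a1 at 6 weeks to 3060 to 8811 at onset, and Col24a1 goes from 29.21 to 37.8 CPM to 70.97 to 135.3.

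The INs from 7 weeks before onset (8 mice) were intermediate for some classes. Against 6 weeks 22.1% of 21808 genes passed (12% higher, 10.1% lower), and 2 collagens rose and 10 fell, with a median of -0.20 against 0.04 over all genes. Type I, III and V chains had already fallen: Col1a1 was at 6010, 9829 and 12420 CPM (lowest, median, highest), below every 6-week value, and its log2 fold change was -1.27 (SE 0.23, adjusted p = 0.000129). Col3a1 (5911, 8897 and 11970 CPM) fell by 1.34 and Col5a1 (665.1, 1187 and 1568) by 1.34, likewise without overlap. Col4a1 (0.02) and Col24a1 (0.05) were near 0 on the log2 scale.

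From 7 weeks before onset to the later INs, 8.22% of genes passed (3.11% higher, 5.11% lower), and 3 collagens rose and 7 fell. Col24a1 rose by 0.97 (SE 0.16, adjusted p = 0.000475), Col20a1 by 0.47 and Col15a1 by 0.39. Col7a1, the anchoring fibril collagen of the skin, fell by 1.00 (SE 0.23, adjusted p = 0.00545), Col18a1 by 0.93, Col4a5 by 0.68 and Col26a1 by 1.75. Only 1 of these 10 calls, Col4a5, remained with the mouse as a block, and 2 calls were made with the mice that had batch 2 samples at every time. Col1a1 (-0.17) and Col3a1 (-0.52) did not pass.

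Onset was then compared with 5 weeks before. The INs at onset also came from older mice and a later round, which cannot be told apart from the approach of hyperglycaemia. In batch 1 1.03% of 21131 genes passed (0.459% higher, 0.573% lower), and of the collagens Col6a5 alone rose. In batch 2 10.6% of 21808 genes passed (3.48% higher, 7.16% lower), and 1 collagen rose and 11 fell. The members' medians were 0.21 and -0.53, against 0.02 and -0.02 over all genes.

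In batch 2 Col3a1 had 8371, 9051, 5978, 10450 and 6624 CPM in progressors 6 to 10 at 5 weeks before onset and 5301, 1472, 2819, 3924 and 2879 at onset. Every mouse was lower at onset, and the fall was 1.30 on the log2 scale (SE 0.30, adjusted p = 0.00304). In batch 1 it had 6333, 5317, 4455, 5510 and 6412 CPM at 5 weeks before onset and 10730, 16240, 3578, 11970 and 2732 at onset. Here 3 mice were higher and 2 lower, and the log2 fold change was 0.68 (SE 0.33, adjusted p = 0.294). The change in batch 2 minus that in batch 1 was -1.91 (SE 0.48, adjusted p = 0.0113). Without the libraries with skin markers it was -1.56 (SE 0.53, adjusted p = 0.0955), and it did not pass without progressor 2 (-1.58, adjusted p = 0.0894) or with only the groups compared (-1.96, adjusted p = 0.0754).

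The pair Col4a1 and Col4a2, whose starts share the 22 bases printed above, moved together. Col4a1 had 356.2, 314.1, 534.4, 508.8 and 317 CPM at 5 weeks before onset in batch 2 and 231.1, 108.4, 81.39, 245.3 and 151.4 at onset, and fell by 1.31 (SE 0.34, adjusted p = 0.00907). Col4a2 fell by 1.15 (SE 0.31, adjusted p = 0.014). In batch 1 Col4a1 had 583.1, 410.2, 105.2, 595.2 and 145.8 CPM and then 538.3, 591.4, 257, 615.6 and 261.8, with overlap and a log2 fold change of 0.29. The difference between the batches was -1.53 for Col4a1 (SE 0.49, adjusted p = 0.0491), and this call was lost with the mouse as a block, without the libraries with skin markers and in 8 of 10 fits that left out 1 mouse.

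Col14a1 had the strongest fall of the 11, from 280.3, 390.2, 211.1, 441.1 and 242.7 CPM to 89.72, 37.4, 41.33, 61.14 and 46.02, a log2 fold change of -2.50 (SE 0.41, adjusted p = 8.01e-05). In batch 1 its onset values were split, at 256.4, 554.2, 52.34, 441 and 28.25 CPM after 143.8, 108.2, 53.8, 79.64 and 71.13. The difference between the batches was -3.97 (SE 0.72, adjusted p = 0.000471). Col6a5, an alternative chain of type VI collagen found in skin, fell by 1.95 in batch 2 (from 43.31 to 166.7 CPM to 16.09 to 46.7) and rose by 2.25 in batch 1 (from 4.525 to 29.8 to 16.12 to 151.1). Its difference was -4.13 (SE 0.87, adjusted p = 0.00215), and the rise in batch 1 was lost with the mouse as a block, without the libraries with skin markers and in each fit that left out 1 of the 5 mice. Col4a4 (-1.72) and Col6a6 (-1.48) also differed between the batches, Col4a4 not without progressor 1, 2, 9 or 10 and Col6a6 neither without progressor 2 nor without the libraries with skin markers, so 6 of 44 members did, beside 6.66% of 21968 genes (2.59% higher, 4.08% lower).

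The count in batch 2 changed with the mice and libraries left out. It was 5 without progressor 8, 7 without progressor 9, and 5 without the libraries with skin markers, a setting that lost Col4a1, Col4a2 and Col6a1 and kept Col3a1, Col14a1, Col24a1 and Col6a5 among the calls. With the block it was 10, without Col1a2, Col5a2 and Col23a1. The count of members that differed between the batches was 2 without progressor 2 and 3 without the libraries with skin markers. Calls over all genes in these refits are not given here. A loss particular to collagens therefore cannot be told from a general loss of calls with fewer samples. Fibroblast markers fell in 6 of 6 in batch 2 (median -1.80, from 851.5 to 1594 CPM in sum to 313.6 to 641.2) and in 0 of 6 in batch 1 (0.37, 321.5 to 752.8 and then 223.5 to 1315). Endothelial markers fell in 3 of 5 in batch 2 (from 107.4 to 264.7 CPM in sum to 42.51 to 111.8) and in 0 of 5 in batch 1 (23.74 to 211.2 and then 97.69 to 253). What the batches also differ in, the mice and the sequencing instrument among them, cannot be told apart from these differences, and the part of the marker genes' cells was not tested.

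At 6 weeks of age, before any mouse was diabetic, progressors were compared with nonprogressors. In batch 1 0.0521% of 21131 genes passed (0 higher, 11 lower) and in batch 2 0% of 21808. The epidermis markers Krt1, Krt10 and Lor were among those lower in batch 1. The 6-week library of nonprogressor 4 in batch 1 was 1 of those with skin markers, and its part here was not tested. No collagen of 44 or of 42 passed by edgeR, with 3 and 0 at an unadjusted p under 0.05, and by DESeq2 1 passed in batch 1. Col1a1 had 17168, 29684, 15076, 19943 and 17468 CPM in progressors and 17559.8, 12639, 11280.3 and 17597 in nonprogressors of batch 1, with overlap (log2 fold change 0.43). In batch 2 the ranges were 18490 to 26330 and 16770 to 28250 CPM (0.06). Col24a1 differed by 0.22 in batch 1 and -0.15 in batch 2, and the members' medians were 0.29 and -0.08.

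Col24a1 was the 1 fibrillar chain of 11 that rose from 6 weeks to later ages in nonprogressors and progressors of each batch, where 3 and 7 chains fell in nonprogressors of batches 1 and 2 and 8 in progressors of each. In progressors of batch 1 it had 27.49, 36.33, 25.03, 34.25 and 27.37 CPM at 6 weeks, 28.33, 49.61, 83.2, 55.73 and 84.06 at 5 weeks before onset and 68.45, 63.79, 119.1, 90.67 and 110.7 at onset. In batch 2 it had 29.21, 33.25, 30.73, 37.8 and 32.49 CPM at 6 weeks, 64.99, 53.42, 13.91, 51.35 and 44.87 at 5 weeks before and 113.5, 70.97, 83.49, 135.3 and 109.1 at onset. All 10 onset INs lay above all 10 INs from 6 weeks. The 20 later INs of a batch were higher than its 6-week INs by 1.28 (SE 0.21, adjusted p = 1.4e-05) and 1.02 (SE 0.20, adjusted p = 0.000106). Onset exceeded 5 weeks before by 1.16 in batch 2 (SE 0.24, adjusted p = 0.001), a call lost with only the groups compared in the fit (adjusted p = 0.0798). In batch 1 the difference was 0.58, which did not pass (adjusted p = 0.208).

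The gene rose outside the progressors too. Nonprogressors of batch 1 had 29.78, 32.79, 19.06 and 21.79 CPM at 6 weeks and 113.5, 102.7, 107.9 and 125.9 at 22 weeks, and over all later ages Col24a1 rose by 1.40 (SE 0.23, adjusted p = 0.000134). NOR mice had 21.98, 30.62, 36.99, 35.37 and 21.71 CPM at 10 weeks and 55.8, 57.29, 54.95, 64.46 and 57.85 at 22 weeks, without overlap, a rise of 0.97 (SE 0.24, adjusted p = 0.00473). In nonprogressors of batch 2 the rise from 6 to 14 weeks was 0.54 (SE 0.21, adjusted p = 0.042) and did not pass with the mouse as a block, without the filter on low counts or in 6 of 7 fits that left out 1 mouse. Other fibrillar chains rose between 10 and 22 weeks too, Col5a3 by 0.94 in NOR (SE 0.27, adjusted p = 0.0171, lost without mouse 1, 2, 3 or 5) and Col11a2 by 1.38 in nonprogressors (SE 0.29, adjusted p = 0.00116). From 6 weeks to all later ages in NOR the change of Col24a1 was 0.34 and did not pass (SE 0.21, adjusted p = 0.783).

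Members found in cartilage and epithelium varied by library. Col17a1, the hemidesmosome collagen of basal keratinocytes, had 0.8712, 1.275, 1.655 and 75.5 CPM in nonprogressors 1 to 4 of batch 1 at 6 weeks. The library of nonprogressor 4 also had the highest sum of epidermis markers of all libraries, 509.8 CPM. The fall of Col17a1 by 3.41 in the comparison of later ages with 6 weeks rested on this library: without nonprogressor 4 the log2 fold change was 0.66, and without the libraries with skin markers 0.16.

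In nonprogressors of batch 2 at 14 weeks Col17a1 had 1.026, 16.4, 6.613, 9.3, 3.567 and 5.367 CPM in mice 5 to 10, against 0.7845 to 3.871 at 6 weeks. Col4a6, which pairs with Col4a5 in some epithelial basement membranes, had 0.4845, 13.14, 9.421, 13.52, 3.662 and 4.628 CPM, against 0.5568 to 1.884. Col9a1 had 0.0855, 1.633, 0.5248, 0.7216, 0.2841 and 0.2216 CPM, and was at 0 in 5 of 7 libraries at 6 weeks. Mice 6 to 10 lay above mouse 5 in each of these members, and mouse 9 lay within the 6-week range of Col17a1. Their log2 fold changes were 2.20, 2.87 and 4.99 (adjusted p = 0.0196, 0.00876 and 0.00218). The call of Col17a1 was lost with the mouse as a block (2.03, SE 0.83, adjusted p = 0.0769) and without mouse 6 or 8, and Col9a1 was not called when only these groups were fitted.

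Krt5, a keratin of basal epidermis, followed the same libraries at 14 weeks, with 0, 15.8, 9.001, 12.53, 3.346 and 5.982 CPM in mice 5 to 10 and at most 5.382 at 6 weeks. Adipocyte markers summed to 19.64 CPM in mouse 5 and to 344 to 725.4 in mice 6 to 10. Of the INs from 7 weeks before onset, those of progressors 7 and 10 had Col4a6 at 16.94 and 10.03 CPM, Col17a1 at 14.35 and 8.306, Col9a1 at 1.175 and 0.672 and Krt5 at 18.35 and 11.94, and the other 6 had at most 0.7082, 1.264, 0 and 0.2529. What these libraries hold besides the implant's tissue was not tested.

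The genes that make and cross-link collagen were described from a list of 28. In the nonprogressors of batch 1, 0 rose and 5 fell from 6 weeks to later ages (median -0.13), in those of batch 2 0 rose and 23 fell (-0.66), and in progressors 0 rose and 14 fell in batch 1 (-0.49) and 0 rose and 23 fell in batch 2 (-0.81). In NOR mice none of 28 passed (0.02). Over all genes 1308 of 21131 fell in nonprogressors of batch 1 and 2928 of 21808 in those of batch 2 (medians -0.018 and 0.022). In progressors 2798 of 21131 genes fell in batch 1 and 3729 of 21808 in batch 2 (0.005 and 0.035). Serpinh1, the collagen chaperone HSP47, fell by 1.07 and 1.43 in progressors of batches 1 and 2, and Pcolce, which speeds the trimming of procollagen, by 1.10 and 1.23. Sparc, a collagen-binding matrix protein, fell by 1.22 and 1.46, and Loxl1, a cross-linking oxidase, by 1.11 and 1.19. Between 5 weeks before onset and onset 7 of the list fell and 2 (Plod3 and Colgalt1) rose in batch 2, and 1 (Pcolce2) rose in batch 1. Over all genes 1562 of 21808 fell and 758 rose in batch 2, and 121 of 21131 fell and 97 rose in batch 1. The members Col4a3, Col13a1, Col19a1 and Col22a1 passed in none of the 14 comparisons between groups.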

How the data were processed

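RNA sequencing of 120 IN biopsies (74 in batch 1, 46 in batch 2) was analysed. The authors prepared ribosome-depleted total RNA libraries, ran the batches on NovaSeq machines of 2 models, and deposited expected counts per Ensembl gene as whole numbers without normalization. Per the labels, cutadapt, FastQC, STAR, RSEM and MultiQC were used with GRCm38, with versions not given in the sources used here. Reporter rows were left out.

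Each batch was fitted on its own, with 68 libraries of batch 1, by the quasi-likelihood test of edgeR 4.0.16 (R 4.3.3) over all genes left by filterByExpr, with TMM factors, and a Benjamini-Hochberg adjusted p under 0.05 was called. The SE is the absolute log2 fold change over the square root of F. Strains were compared on counts summed per mouse, and differences between batches in a joint fit with batch terms. The test was checked on simulated counts. Called members are named in the text only in part, and the counts cover all of them. Col8a1, Col8a2, Col9a2, Col12a1 and Col25a1, for example, were called in at least 1 comparison but are not named above. Values of Col1a1, Col1a2, Col3a1, Col4a1, Col4a2 and Col24a1 are given for selected comparisons. The members and lists (marker lists, collagen maturation) were chosen with earlier results of these data known.

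Same-numbered samples are the same animal, so the paired alternative took the mouse as a block. Deviations from group means correlated by -0.04 to 0.03 on average within a mouse (2000 genes). P-values measure the spread between biopsies. Replicates differed beyond sampling noise in all 239 pairs (lowest chi-square per degree of freedom 11.97). DESeq2 1.42.0, RLE scaling, no filter, only the groups compared and each mouse left out were tried. The setting without the libraries with skin markers was chosen after seeing the data. Exon overlap with other genes reached 6.07% of Col9a3 and 5.65% of Col4a3, and for these the counting could mix genes. Totals set the depth, so counts near 0, such as those of Col9a1, give imprecise fold changes that depend on the prior count.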

Additional observations from a re-analysis of the deposited data

Results flagged for a closer look

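Of 161 combinations of a group and a measure, 6 had a library whose distance from the next exceeded the 95% limit of Dixon's test, and chance gives about 1 in 20. Progressor 2 of batch 1 at 6 weeks had 11.06% of its counts on collagens and 28430 CPM of Col3a1, above the other 4 mice in both. Nonprogressor 3 of batch 1 at 22 weeks had 1374 CPM of Col4a1 and 833.5 CPM of Col4a2, against 345.1 to 379.6 CPM of Col4a1 in the other mice. NOR mouse 2 at 14 weeks had 283 CPM of Col4a1, below the other 4 mice, and nonprogressor 5 of batch 2 at 6 weeks had 47.43 CPM of Col24a1, above the other 6.

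In 6 members the change from 5 weeks before onset to onset differed between the progressors of batch 2 and those of batch 1 by the test of that difference. The log2 difference, batch 2 minus batch 1, was -1.91 for Col3a1, -1.53 for Col4a1, -1.72 for Col4a4, -4.13 for Col6a5, -1.48 for Col6a6 and -3.97 for Col14a1.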

How the results depend on the processing

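Alternatives gave 1914 values for collagens in the comparisons that called them. Of these values 1635 kept direction and side of the threshold, 277 lost the call and 2 reversed. Both reversals were of Col17a1 in nonprogressors of batch 1 (0.16 without the libraries with skin markers and 0.66 without nonprogressor 4). Leaving out 1 mouse at a time gave -4.45 to 0.66 there. The cause was not tested, beyond fewer samples or another set of genes in a setting. Counts over all genes in these settings and in the fits that left out 1 mouse are not given here. A change particular to collagens thus cannot be told from a general one. Counts of collagens moved by over 1.5 times as follows. Without the filter on low counts, 2 became 1 for the strains, 1 became 0 for batch 1 progressors at onset against 5 weeks before, and 11 became 7 for nonprogressors from 10 to 22 weeks. With only the groups compared in the fit, 1 became 0 in NOR against 6 weeks and at onset in batch 1, 12 became 6 at onset in batch 2, 9 became 15 in NOR from 10 to 22 weeks, and 6 became 3 for the difference between batches at onset. With the mouse as a block (the paired fit), 1 became 0 in NOR against 6 weeks and at onset in batch 1, 10 became 1 for later INs against 7 weeks before onset, and 0 became 1 for the difference between batches against 6 weeks. The block could not be fitted for the strains and for progressors against nonprogressors at 6 weeks, whose mice differ. With DESeq2, 2 became 4 for the strains, and 0 became 1 for progressors against nonprogressors at 6 weeks in batch 1, for the nonprogressor minus NOR change, for the progressor minus nonprogressor change in batch 1 and for the difference between batches against 6 weeks. Without the libraries with skin markers, 14 became 7 in nonprogressors of batch 1, 1 became 0 and 12 became 5 at onset in batches 1 and 2, and 6 became 3 for their difference. The strain count was 0 with 6-week biopsies alone, the NOR count against 6 weeks 0 with 14 weeks alone, and later INs against 7 weeks before onset gave 2 with the mice sampled at every time.

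Leaving out each mouse in turn gave 1 to 3 collagens for the strains, 0 to 2 for NOR, 5 to 11 for nonprogressors of batch 1 and 19 to 26 for those of batch 2 against 6 weeks. Progressors gave 19 to 25 in batch 1 and 21 to 26 in batch 2 against 6 weeks, 0 to 1 and 5 to 12 at onset against 5 weeks before, and 9 to 15 and 8 to 14 in the comparisons of 7 weeks before onset with 6 weeks and with later. It gave 5 to 9 in NOR and 5 to 8 in nonprogressors from 10 to 22 weeks, 0 to 1 at 6 weeks in batch 1, for the progressor minus nonprogressor change in batch 1 and for the difference between batches against 6 weeks, and 2 to 7 for that at onset. Low counts limit Col9a1, Col19a1, Col22a1 and Col2a1, whose fold changes rest on few reads.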

Other observations

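The 6 nonprogressor INs of batch 1 labelled by days after implantation belong to no comparison. At 31 days collagens took 4.056% and 4.28% of counts, at 38 days 3.257% and 4.094%, and at 108 days 2.879% and 2.975%. Col1a1 was at 9861 and 8801 CPM at 31 days, at 6023 and 8054 at 38 days and at 4621 and 5348 at 108 days. Col24a1 was at 35.24 and 29.95 CPM, at 19.65 and 27.93, and at 36.33 and 42.86. Col4a1 was at 759.7 and 901.4 CPM, at 866.9 and 985.5, and at 682.5 and 586.9. Col6a4 was at 0.5049 and 0.8312 CPM at 31 days and at 1.944 and 2.658 at 108 days.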
